A study of Mus musculus with 4 samples.

Results

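Ivl, Prg4, Edn1 and Npy encode involucrin, lubricin, endothelin 1 and neuropeptide Y, proteins that are best known from skin, joints, blood vessels and nerves. They were read out in RNA of CD24+ liver cells as the rows of those 4 symbols, out of 21878 rows per library, and were selected on their counts and FPKM, each being far higher in one treatment group than in the other. These values are therefore given as a description and no test of them is reported. All 4 passed the filter on low counts, which left 13428 genes for testing.

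The cells came from C57BL/6 mice and were sorted with magnetic beads on CD24, a surface protein of liver progenitor cells and of several other cell types. There were 2 libraries of HACY mice and 2 of CCL4 mice, and no untreated or vehicle group, so each difference is HACY relative to CCL4. Injections began at 8 weeks of age and went on for 6 weeks in both groups. CCL4 mice had carbon tetrachloride, a liver toxin, 2 times a week at 2 ml/kg, with olive oil as the carrier. HACY mice had a mixture 3 times a week: Y-27632 is a kinase inhibitor, A-83-01 blocks the type I receptors of TGF-beta, and CHIR99021 acts on glycogen synthase kinase 3 as an inhibitor. The labels do not make clear whether HACY mice also had carbon tetrachloride, and they give no dose for the mixture. They name the sorted cells hepatocytes and leave unsaid whether replicates are separate animals. The p-values thus cover the spread between these samples alone, which may be technical.

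Involucrin is a scaffold of the cornified envelope, the cross-linked protein shell under the membrane of differentiated keratinocytes, and its gene lies among other envelope genes in the epidermal differentiation complex. Lubricin is a secreted mucin-like glycoprotein that lubricates joint surfaces, binds the hyaluronan receptor CD44 and is also made by the liver. Endothelin 1 is a vasoconstrictor peptide cut from a precursor by furin and endothelin-converting enzymes. It acts on the receptors EDNRA and EDNRB, and in liver it is known for contracting stellate cells. Neuropeptide Y is an amidated peptide of sympathetic nerves and brain that acts on a family of receptors on the cell surface.

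RefSeq promoter windows (GRCm38.p6, the assembly of the submitters' build mm10) matched 3 of the 4 genes, and they are shown because these genes were high in the same libraries. Each run is the 250 bases before the annotated start, read 5′ to 3′ on the strand of the gene. Capitals mark every match to 9 motifs searched on both strands.
Ivl, chr3:92573736-92573985, minus strand: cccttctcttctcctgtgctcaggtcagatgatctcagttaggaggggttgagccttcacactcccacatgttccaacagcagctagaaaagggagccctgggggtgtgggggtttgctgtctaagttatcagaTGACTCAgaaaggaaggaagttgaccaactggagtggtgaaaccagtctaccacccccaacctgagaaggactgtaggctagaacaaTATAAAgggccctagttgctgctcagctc
Edn1, chr13:42301226-42301475, plus strand: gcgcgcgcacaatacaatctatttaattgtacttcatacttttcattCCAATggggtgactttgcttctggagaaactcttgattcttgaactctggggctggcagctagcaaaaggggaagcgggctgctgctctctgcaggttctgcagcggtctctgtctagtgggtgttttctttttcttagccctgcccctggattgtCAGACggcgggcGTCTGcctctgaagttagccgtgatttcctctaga
Npy, chr6:49822460-49822709, plus strand: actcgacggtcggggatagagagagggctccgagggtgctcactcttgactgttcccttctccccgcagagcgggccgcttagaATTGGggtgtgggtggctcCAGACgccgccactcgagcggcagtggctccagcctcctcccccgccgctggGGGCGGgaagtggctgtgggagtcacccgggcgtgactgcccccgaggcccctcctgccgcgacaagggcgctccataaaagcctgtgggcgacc

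The TATA box was searched as TATAAA. The letters for the box bound by NF-Y were CCAAT. The box bound by Sp1 was searched as GGGCGG. Sites of AP-1 were searched as TGANTCA. For the cyclic AMP element the letters were TGACGTCA. Those for the GATA family were AGATAA. The search for STAT factors used TTCNNNGAA. The letters for the TCF and LEF factors were CTTTGA. The box of the SMAD proteins was CAGAC. Ivl held a TATA box 29 to 24 bases before its start and an AP-1 match 116 to 110 bases before it. Of all 32851 promoter windows of the same length, 12.4% hold TATAAA and 6.75% hold TGANTCA. Edn1 held a CCAAT box, found in 33.8% of windows, and 2 matches to CAGAC, 1 on each strand, found in 42.2%. Npy held a CCAAT box on the opposite strand, a GC box, found in 32.7% of windows, and 1 CAGAC. No motif of the 9 was shared by all 3 windows, and none of the matches overlapped another. The cyclic AMP element, GATA, STAT and TCF/LEF letters occurred in none of the 3, against 1.55%, 9.99%, 7.02% and 13.8% of all windows. Base composition also differed: the Ivl window held 0 CpG pairs and 51.6% G and C, the Edn1 window 9 CpG pairs and 50.4%, and the Npy window 21 CpG pairs and 69.2%, above 89.6% of all windows in G and C content. A match to such letters is a description and not a measured binding site.

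Ivl lies on chromosome 3, 92570902 to 92573735 (minus strand), as 2 exons that cover 1922 bases in the GENCODE annotation of GRCm38, and no annotated gene overlaps it. It had 4217 and 3366 reads in HACY replicates 1 and 2, and 174 and 298 reads in CCL4 replicates 1 and 2. As CPM, reads scaled to library size with TMM factors, these were 230 and 191 in HACY and 8.80 and 14.7 in CCL4. Both HACY libraries stood far above both CCL4 libraries, and CCL4 replicate 2 held more than CCL4 replicate 1. The group means were 211 ± 27.8 and 11.7 ± 4.17 CPM (SD, n = 2), a ratio of 17.9 (log2 fold change 4.16, SE 0.25 in edgeR). Over the 4 pairs of a HACY with a CCL4 library the ratio was 13.0 to 26.2.

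Prg4 lies on chromosome 1, 150449412 to 150466165 (minus strand), with 4280 bases of exon in 13 blocks. It had 4394 and 6099 reads in HACY replicates 1 and 2 and 390 and 430 in CCL4 replicates 1 and 2. In CPM it stood at 240 and 346 in HACY and at 19.7 and 21.2 in CCL4. The CCL4 libraries were almost level, and HACY replicate 2 was the highest of the 4. The means were 293 ± 75.1 and 20.5 ± 1.04 CPM (SD, n = 2), a ratio of 14.3 (log2 3.84, SE 0.21), and the ratio of single pairs was 11.3 to 17.6. Prg4 and Tpr, a nuclear pore gene on the opposite strand, overlap by 524 bases, 204 of them exonic in both. Tpr had 483 and 490 CPM in HACY and 424 and 399 in CCL4 (log2 0.24, SE 0.11, edgeR adjusted p = 0.197). Whether counting used strand is not given in the sources used, so it is not known how reads in the shared bases were assigned.

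Edn1 lies on chromosome 13, 42301476 to 42307990 (plus strand), with 5 exons of 2139 bases. Its reads numbered 802 and 338 in HACY replicates 1 and 2 and 49 and 37 in CCL4 replicates 1 and 2, or 43.8, 19.2, 2.48 and 1.82 CPM. Here HACY replicate 1 held 2.28 times the level of HACY replicate 2, a larger gap than between the HACY libraries for 98.5% of the genes tested. The groups still did not overlap. The means were 31.5 ± 17.4 and 2.15 ± 0.462 CPM (SD, n = 2), a ratio of 14.6 (log2 3.87, SE 0.44), and single pairs ran from 7.74 to 24.0. Without HACY replicate 1 the log2 fold change was 3.15, and without HACY replicate 2 it was 4.35. The antisense gene Gm47118 overlaps Edn1, with 35 bases exonic in both, and is not among the rows of the tables.

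Npy lies on chromosome 6, 49822710 to 49829507 (plus strand), with 4 exons of only 566 bases, and no annotated gene overlaps it. It had 257 and 256 reads in HACY replicates 1 and 2, and 17 and 39 in CCL4 replicates 1 and 2. In CPM the HACY libraries were nearly equal, at 14.0 and 14.5, while the CCL4 libraries were at 0.860 and 1.92. CCL4 replicate 2 was thus 2.24 times CCL4 replicate 1, a gap larger than for 94.8% of the genes tested. The means were 14.3 ± 0.348 and 1.39 ± 0.751 CPM (SD, n = 2), a ratio of 10.3 (log2 3.35, SE 0.39), and single pairs ran from 7.30 to 16.9. Without CCL4 replicate 2 the log2 fold change was 4.04.

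**Figure D1:**
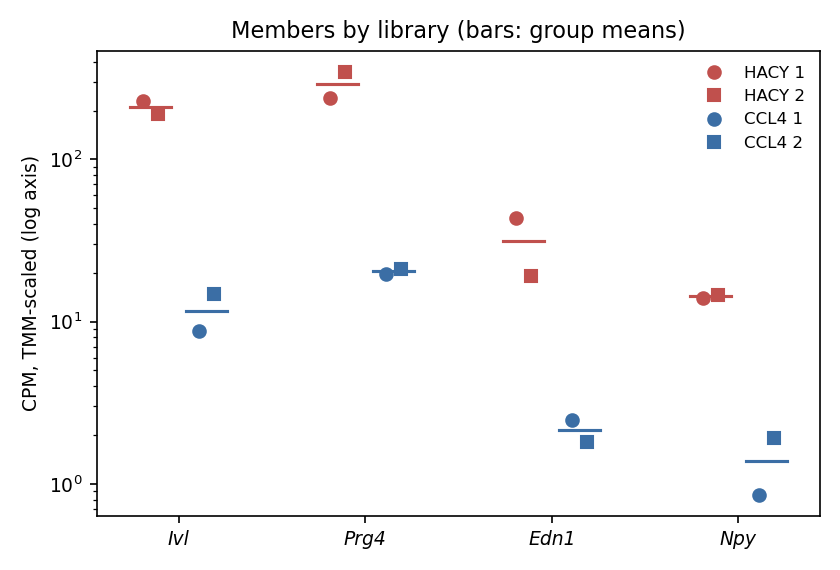
CPM on a log axis for each gene (x axis), with 1 point per library and a bar at each group mean. Every HACY point lies above every CCL4 point of the same gene, with the widest gap between HACY libraries at Edn1 and between CCL4 libraries at Npy.

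Against all genes, 30.7% of those tested had both HACY libraries above both CCL4 libraries and 30.1% had both below. An unadjusted p below 0.05 was reached by 30.1%, and 1576 of 13428 (11.7%) passed edgeR's quasi-likelihood test at an adjusted p below 0.05. Of these, 1100 (8.19% of tested) were higher and 476 (3.54%) lower in HACY. By log2 fold change Ivl ranked 12, Edn1 18, Prg4 20 and Npy 30 of 13428, and 49 genes had a log2 fold change above 3. Because the 4 genes were chosen for this difference, nothing is read from these shares. Shares by mean CPM, which is not scaled to gene length, depend on length as well as on level. By this measure Prg4 in HACY was above 95.8% of the tested genes, Ivl above 93.0%, Edn1 above 51.1% and Npy above 33.2%. In CCL4 the same shares were 40.9%, 30.0%, 11% and 7.86%. The totals were 18467299 to 19314219 reads per library. The 69.8% share of higher calls depended on scaling: scaled by library size only, 856 rose and 1355 fell, and the median of all genes moved from -0.0093 to -0.18. The log2 fold changes of Ivl, Prg4, Edn1 and Npy were 2.54 or more under every scaling and tool tried on all 4 libraries.

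Levels of different genes can be compared only per length. In CPM per kilobase of exon, the HACY libraries gave 120 and 99.4 for Ivl, 56.1 and 80.9 for Prg4, 24.8 and 25.7 for Npy and 20.5 and 8.97 for Edn1, and no neighbours in that order overlapped. In CCL4 the level of Ivl, 4.58 and 7.64, and that of Prg4, 4.61 and 4.95, overlapped, followed by Npy at 1.52 and 3.40 and Edn1 at 1.16 and 0.853. The deposited FPKM, which is also a level per length, put the genes in another order. In HACY it was 53.3 and 44.4 for Ivl, 28.6 and 28.5 for Npy, 19.2 and 8.21 for Edn1 and 8.07 and 11.5 for Prg4, with the last 2 overlapping. In CCL4 it was 2.07 and 3.71 for Ivl, 1.91 and 4.13 for Npy, 1.15 and 0.836 for Edn1 and 0.803 and 0.864 for Prg4. There Ivl overlapped Npy, and Edn1 overlapped Prg4. Within a gene the FPKM gave somewhat smaller ratios of HACY to CCL4 than the CPM: 16.9 for Ivl, 11.8 for Prg4, 13.8 for Edn1 and 9.45 for Npy.

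The disagreement on Prg4 can be put as a length. Dividing its reads by its FPKM and the library total gives an implied length of 25755 to 28414 bases, 6.33 times the 4280 bases of annotated exon. That ratio was 2.19 for Ivl, 1.05 for Edn1 and 0.845 for Npy. Over 13003 tested genes its median was 1.06, with 5% of genes below 0.407 and 5% above 2.43, and 99.6% of genes had a smaller ratio than Prg4. The level of Prg4 relative to other genes therefore differs with the column used, while its ratio between groups was 14.3 from CPM and 11.8 from FPKM. The cause of the gap was not tested.

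**Figure D2:**
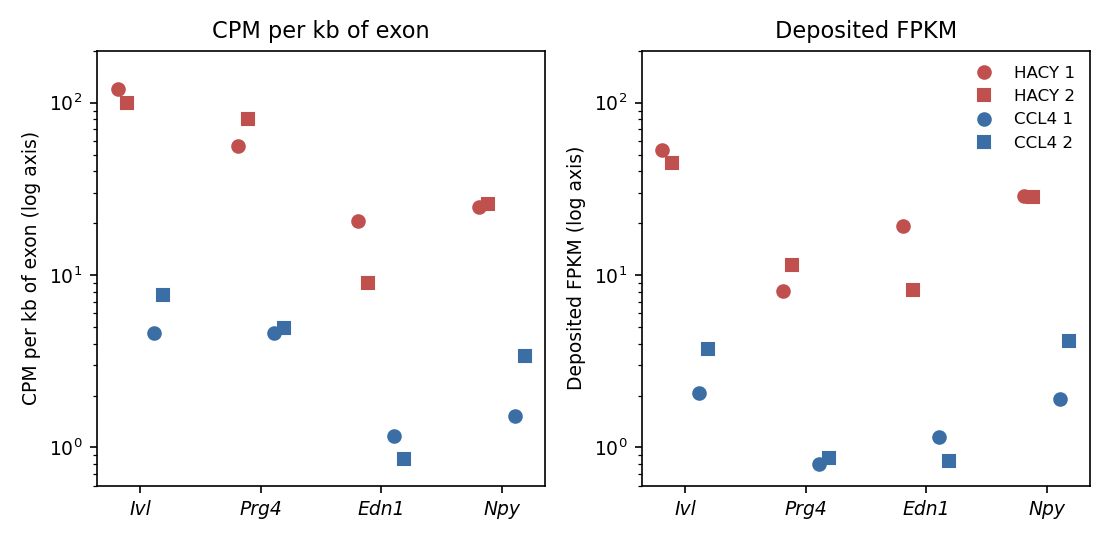
CPM per kilobase of exon (left) and deposited FPKM (right), both on log axes, for each gene and library. Prg4 lies just under Ivl on the left in HACY, at 56.1 and 80.9, and overlaps Edn1 on the right, at 8.07 and 11.5, while each gene keeps its gap between groups.

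The other genes of the cornified envelope did not move as one with Ivl. Of 69 genes listed for the envelope and keratinocyte differentiation 68 were in the tables, 28 had 0 reads in every library and 17 could be tested. Among the 17, 1 rose and 2 fell (17.6%, against 11.7% of all genes), with a median log2 fold change of -0.073 against -0.009 for all genes tested. Sprr2b, a small proline-rich envelope protein, had 53 and 22 reads in HACY and 1 and 0 in CCL4 (edgeR adjusted p = 0.0115), but its reads are uncertain because the Sprr2 genes are near-identical. Tchh, trichohyalin of hair follicles, had 25 and 9 reads in HACY and 113 and 86 in CCL4 (log2 -2.39, SE 0.51, adjusted p = 0.0273), a call that did not survive removal of HACY replicate 2 (adjusted p = 0.103) or CCL4 replicate 1 (0.0614). Lce1g, a late envelope protein of a family with similar copies, had a log2 fold change of -1.23 (SE 0.29, adjusted p = 0.0378), lost without HACY replicate 1 (0.281) or HACY replicate 2 (0.209), without the filter (0.0792), in limma-voom (0.0521) and on log2(FPKM + 1) (0.0591). The number called was 1 without HACY replicate 2 and 5 without CCL4 replicate 2.

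Several structural genes of the epidermis were not detected beside Ivl. Flg and Flg2, the filaggrins that bundle keratin, Krt1 and Krt2, keratins of the upper epidermis, and Casp14 had 0 reads in all 4 libraries, which allows up to 3 reads, or 0.155 to 0.162 CPM. By contrast Sprr1a, another envelope precursor, was among the abundant genes of both groups, with 52659 and 70443 reads in HACY and 55731 and 80015 in CCL4, or 3437 and 3381 CPM on average (log2 0.024, SE 0.21, adjusted p = 0.956). Tgm1, the transglutaminase that cross-links involucrin, had 15.7 CPM in HACY and 10.7 in CCL4 (log2 0.56, SE 0.24, adjusted p = 0.175). Ppl, periplakin, and Evpl, envoplakin, the plakins on which the envelope is assembled, had log2 fold changes of 0.74 (adjusted p = 0.0518) and -0.091 (0.912). Other genes of the list were also well detected. Crct1 averaged 82.2 CPM in HACY and 219 in CCL4 (log2 -1.42, SE 0.37, edgeR adjusted p = 0.0508). Lce1g averaged 73.1 and 172 CPM in HACY and CCL4, and Dsp 177 and 183. Sprr1a, Tgm1, Ppl, Evpl, Crct1, Dsp and the undetected genes were singled out after their values were seen.

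Among 21 transcription factors of keratinocyte differentiation, which include the AP-1 subunits, 16 were tested, 1 rose and 5 fell (37.5%, against 11.7% of all genes), with a median log2 fold change of -0.44. Grhl2, of the grainyhead family of epithelial factors, had a log2 fold change of -1.89 (SE 0.45, adjusted p = 0.0399), lost on removal of either HACY library (0.192 and 0.0660) or of CCL4 replicate 1 (0.0973), with the replicate block and in limma-voom (0.0575). Of the AP-1 subunits, Fos rose from 7.81 to 17.2 CPM (log2 1.14, SE 0.27, adjusted p = 0.0397) and Junb fell (-0.54, SE 0.14, 0.0447), whereas Jun, Jund, Fosb, Fosl1 and Fosl2 passed in neither direction. The Fos call was lost without HACY replicate 1 (0.338) or CCL4 replicate 1 (0.0880), by library size alone, with the block, in limma-voom (0.0540) and on log2(FPKM + 1) (0.0720). That of Junb was lost without either HACY library (0.237 and 0.205) and with the block. Removing HACY replicate 1 left 0 factors called and removing HACY replicate 2 left 2. Removing CCL4 replicate 1 left 3, removing CCL4 replicate 2 gave 10, and the replicate number as a block left 2.

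For lubricin, the listed partners were other proteoglycans and the genes of hyaluronan. Of 36 proteoglycans 19 were tested and 1 rose (5.26%, against 11.7% of all genes), Sdc3, a cell surface syndecan, from 171 to 450 CPM (log2 1.39, SE 0.16, adjusted p = 0.00365). None fell, and the median was 0.15 (-0.019 by library size alone). Acan, the aggrecan of cartilage, had 0 reads in all libraries, while Bgn and Dcn, small matrix proteoglycans, stood at 247 against 223 and 105 against 102 CPM in HACY and CCL4. The number of proteoglycans called was 2 without HACY replicate 1 and 7 without CCL4 replicate 2. These 3 genes were named after their values were seen.

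Of 21 genes of hyaluronan metabolism and lubricin receptors, 17 were tested and 5 rose with none falling (29.4%, against 11.7% of all genes), with a median of 0.39. Has2, a hyaluronan synthase, had 889 and 641 reads in HACY and 83 and 214 in CCL4 (log2 2.52, SE 0.40, adjusted p = 0.0112). It was called except without HACY replicate 1 (adjusted p = 0.0518), and its log2 fold change was 3.34 without CCL4 replicate 2. Lyve1, a hyaluronan receptor of sinusoidal and lymphatic endothelium, had 499 and 467 reads in HACY and 40 and 105 in CCL4 (log2 2.90, SE 0.39, adjusted p = 0.00596), and 3.73 without CCL4 replicate 2. Cd44, the receptor that lubricin binds, rose from 325 to 545 CPM (log2 0.74, SE 0.14, adjusted p = 0.0189), a call lost without HACY replicate 2 (0.117) or CCL4 replicate 1 (0.0537) and on log2(FPKM + 1) (0.0782). Tlr4, a bacterial sensor to which lubricin also binds, rose from 20.2 to 41.1 CPM (1.03, SE 0.19, adjusted p = 0.0170), lost without HACY replicate 1 (0.124) and on log2(FPKM + 1) (0.0518). Tlr2, named after its values were seen, had a log2 fold change of 0.39 (adjusted p = 0.210). The remaining riser, Stab1, named after its values were seen, had a log2 fold change of 1.01 (edgeR adjusted p = 0.047) and 0.71 without HACY replicate 1. Its call was lost by upper-quartile or library size scaling and with no filter or the stricter one. It was also lost with the replicate block and on log2(FPKM + 1) (adjusted p = 0.0531 to 0.107 over these settings). Lyve1 and Stab2, the latter not called, are also endothelial markers.

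In the endothelin system Edn1 was the only ligand with reads, and its receptor Ednrb rose with it. Edn2 and Edn3 had 0 reads in every library. Ednrb, the receptor of endothelial and stellate cells that also clears the peptide, had 1758 and 1452 reads in HACY and 481 and 813 in CCL4, or 89.2 and 32.2 CPM on average, and the groups did not overlap (log2 1.47, SE 0.24, adjusted p = 0.0111). Its call held without any single library, at 1.16 to 1.88. Ednra, the receptor of smooth muscle, had 92 and 123 reads in HACY and 89 and 155 in CCL4 (log2 -0.017, SE 0.35, adjusted p = 0.980). Of the processing enzymes, Furin had 0.44 (adjusted p = 0.183), Ece1 0.40 (0.117) and Ece2 0.072 (0.827), and Mme, the peptidase neprilysin, had 0.40 (0.483). Of 12 listed genes 6 were tested, 1 rose and none fell (16.7%, against 11.7% of all genes), with a median of 0.40, and 3 were called without CCL4 replicate 2.

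In the neuropeptide Y system none of the tested partners of Npy was called by edgeR. The receptors Npy1r, Npy2r, Npy4r, Npy5r and Npy6r and the related peptide Ppy had 0 reads in all 4 libraries, and Pyy, peptide YY, had 3 reads in HACY replicate 1 and 0 elsewhere. The prohormone convertase Pcsk2 had 0 reads and Pcsk1 had 2, in HACY replicate 2. Further along the pathway, Cpe, the carboxypeptidase that trims prohormones, had 85.0 CPM in HACY and 127 in CCL4 (log2 -0.58, SE 0.18, adjusted p = 0.0871), Pam, the amidating enzyme, had 41.8 and 41.5 (0.012, adjusted p = 0.978), and Dpp4, which clips the mature peptide, had 36.1 and 26.6 (0.44, adjusted p = 0.113). Of 15 listed genes 4 were tested and edgeR called 0, with 1 positive and 1 negative change at an unadjusted p below 0.05. DESeq2 called 1, limma-voom 0, and edgeR 1 without CCL4 replicate 2. The non-receptor genes of this list were named after their values were seen.

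Of 64 other peptide hormones and vasoactive peptides, 63 were in the tables, 23 had 0 reads in every library and 16 were tested. Of these 7 rose and 1 fell (50%, against 11.7% of all genes), with a median of 0.71. The risers with the smallest p are known liver products: Kng1, kininogen (log2 1.70, SE 0.17, adjusted p = 0.00246), Hamp, hepcidin (2.36, SE 0.30, 0.00461), Agt, angiotensinogen (1.21, SE 0.17, 0.00622), and Igf1 (0.80, SE 0.12, 0.00776). Kng1 and Hamp each have a close copy, so their reads are uncertain between copies. Each of these 4 log2 fold changes was smaller than those of Edn1 and Npy. Edn1 and Npy were chosen for a large rise, so nothing is read from that. Calcb, a calcitonin gene-related peptide, was the riser with the fewest reads, 15 and 10 in HACY and 0 and 1 in CCL4 (adjusted p = 0.0337), and Pomc, the precursor of corticotropin, was the gene that fell (log2 -2.16, SE 0.56, adjusted p = 0.0499). The Calcb call was lost without HACY replicate 2 (0.0903) or CCL4 replicate 1 (0.108), with the replicate block (0.0586) and in DESeq2 (0.0884). The Pomc call was lost without any one library (0.0842 to 0.362), with the block (0.0775), without the filter (0.0547), in DESeq2 (0.124) and in limma-voom (0.0579). Calcb and Pomc were named after their values were seen. The vasodilator gene Adm, adrenomedullin, singled out after its values were seen, had 17.7 and 16.3 CPM (0.12, adjusted p = 0.750). Removing HACY replicate 1 left 5 peptides called, and removing HACY replicate 2 left 4.

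**Figure D3:**
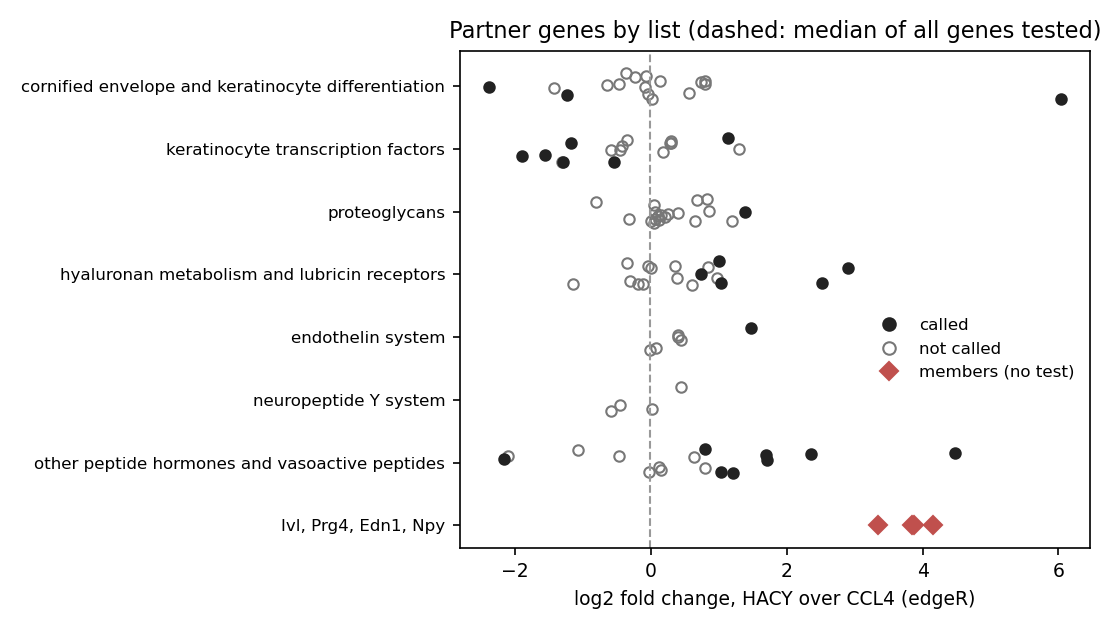
Log2 fold change of HACY over CCL4 (x axis) for each tested gene of the 7 partner lists, filled where edgeR's adjusted p was below 0.05, with Ivl, Prg4, Edn1 and Npy as untested diamonds and a dashed line at the median of all genes. The diamonds lie at 3.35 to 4.16, with Sprr2b of the envelope list and Calcb of the peptide list to their right and most of the keratinocyte transcription factors left of the line.

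Of the tested genes next to Ivl, Prg4, Edn1 and Npy on the chromosome, the highest had a log2 fold change of 1.94. Of the 40 nearest genes in the tables, 5 on each side, 25 were tested, 2 rose and none fell, against 8.19% and 3.54% of all genes, with a median of -0.0018. Beside Ivl, Smcp at 10.1 kb and Sprr4 at 70.4 kb had 0 reads in all libraries, and Sprr1a at 85.0 kb was the abundant gene described above. Beside Prg4 none of 7 tested neighbours was called by edgeR or DESeq2 (2 at an unadjusted p below 0.05), including Ptgs2, a prostaglandin synthase, at 37.3 and 39.4 CPM. Beside Edn1, Adtrp rose from 12 and 12 reads in CCL4 to 34 and 49 in HACY (log2 1.94, SE 0.47, adjusted p = 0.0417), a call lost without any one library (0.0571 to 0.312), with the block (0.0717), in DESeq2 (0.0608) and in limma-voom (0.0530). Beside Npy, Cycs, cytochrome c, rose from 150 to 208 CPM (0.48, SE 0.12, adjusted p = 0.0441), lost without HACY replicate 1 (0.205) or HACY replicate 2 (0.328), with the block (0.0659), on log2(FPKM + 1) (0.0831) and by upper-quartile (0.0645) or library size scaling (0.120). The number of neighbours called was 0 without either HACY library, 1 without CCL4 replicate 1 and 3 without CCL4 replicate 2. Smcp, Sprr4, Sprr1a and Ptgs2 were named after their values were seen.

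**Figure D4:**
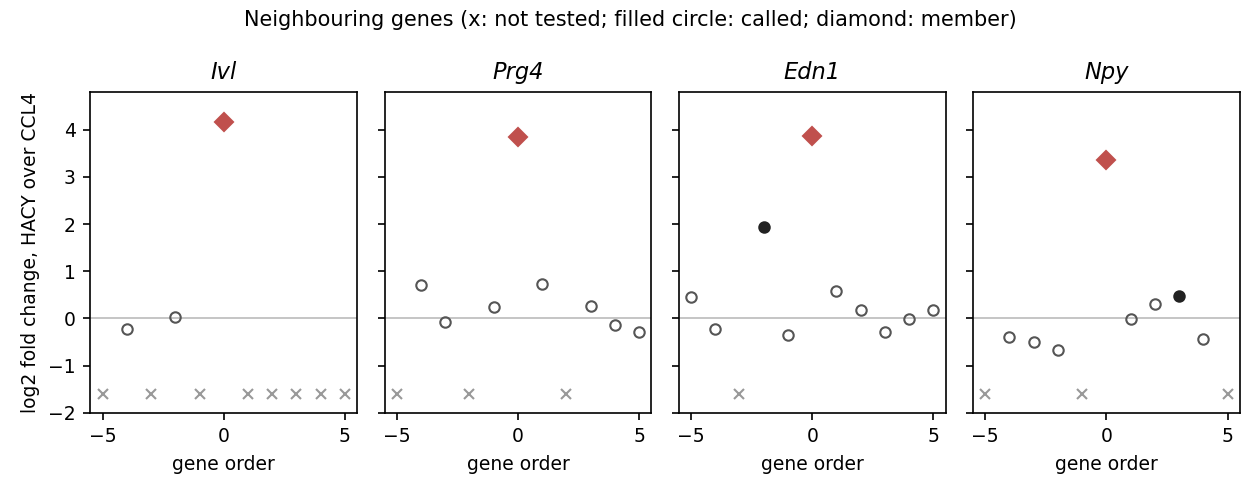
Log2 fold change (y axis) of each member (diamond, order 0) and of its 5 nearest genes on each side (x axis, order along the chromosome), filled where called and marked with a cross where not tested. The 4 diamonds lie at 3.35 to 4.16, and the highest neighbour, Adtrp beside Edn1, at 1.94.

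Genes with the most similar pattern were found by the Euclidean distance between centred log2 CPM values over the 4 libraries, among the 10754 genes whose mean CPM was 5 or more. With 2 libraries a group this measure reflects mainly the size of the group difference and the replicate gaps, and its smallest values were found by search, so it is a description. For Ivl the nearest were Serpina6, corticosteroid-binding globulin (distance 0.60, against a median of 4.23), Prg4 (0.81), Ms4a4c (0.89), Npy (0.89) and Gjb1, a gap junction protein of hepatocytes (0.99). For Prg4 the nearest included Serpina6 (0.26, median 3.83), Cyp2c29 (0.68), Gjb1 (0.72) and Ms4a4c (0.74). Serpina6 had 528 and 694 reads in HACY and 35 and 47 in CCL4, with HACY replicate 2 above HACY replicate 1 as for Prg4.

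For Edn1 the nearest were Ms4a4c (0.69, median 3.82), BC061237 (0.95), Gjb1 (0.97), Ms4a6b (1.01) and Ms4a14 (1.01), of which 3 are Ms4a membrane protein genes. BC061237 had 339 and 120 reads in HACY and 42 and 18 in CCL4, with HACY replicate 1 the highest as for Edn1. For Npy the nearest were Cyp2c70 (0.26, median 3.45), Bhmt, a methyltransferase of the liver (0.28), Apcs, serum amyloid P (0.32), Lyve1 (0.40) and Cyp1a2 (0.45). In Bhmt the HACY libraries had 2615 and 2909 reads and the CCL4 libraries 247 and 503, with CCL4 replicate 2 above CCL4 replicate 1 as for Npy. Among the 4 genes themselves the closest pair was Ivl and Prg4 (0.81) and the farthest Edn1 and Npy (1.41). Counts of the Ms4a and Cyp2c families are uncertain between paralogs.

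Marker genes of several cell types differed between the same libraries. In these bulk samples fewer cells of a type and less RNA per cell cannot be told apart. Hepatocyte markers summed to 29314 to 36990 CPM in HACY and 8334 to 9536 in CCL4, 3.71-fold, with all 11 tested, 8 higher and none lower, so the labelled cell type was present in RNA of every library. Alb was the most abundant of them, at 24005 and 30357 CPM in HACY and 6971 and 5497 in CCL4. The sums are thus mostly Alb, and the median log2 fold change of the 11 genes was 1.27. Macrophage markers summed to 3274 to 4589 and 1291 to 1859 CPM, 2.50-fold, with 11 of 16 higher and none lower (Cd5l highest). Endothelial markers summed to 1652 to 2159 and 759 to 1339 CPM, 1.82-fold, with 5 of 17 higher and 1 lower (Cdh5 highest). DESeq2 called 9 of them higher and 0 lower, limma-voom called 6, and log2(FPKM + 1) gave 2 higher and 1 lower. With the replicate block Lyve1 and Sox17 stayed called. The calls of Pecam1, Ptprb, Tek and Clec4g, the gene that fell, were then lost (edgeR adjusted p = 0.0638 to 0.0757). These endothelial genes were named after their values were seen. Called genes made up 72.7% of the tested hepatocyte markers, 68.8% of macrophage and 35.3% of endothelial markers, against 11.7% of all genes. Ivl, Prg4, Edn1 and Npy were chosen for their ratios, 10.3 to 17.9, so nothing is read from setting these beside the sums. The part of these cell types in the 4 ratios was not tested.

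Marker lists of skin, joint and nerve, and of mesothelium, summed to at most 41.9 CPM in any library. Called genes made up 25% of the tested keratinocyte markers and 14.3% of the mesothelial ones, against 11.7% of all genes. The keratinocyte list summed to 30.9 to 32.4 CPM in HACY and 15 to 19.3 in CCL4, with 4 of 13 tested and 1 higher, Krt17 (log2 1.63, adjusted p = 0.0173, and 0.0926 without HACY replicate 2). Sfn was the highest of that list, and the basal keratin Krt15 and the suprabasal Krt1 were at 0 in all libraries. The synovial and cartilage list summed to 32.9 to 41.9 and 28.6 to 31.4 CPM, nearly all of it Creb5, and Acan, Col10a1, Matn3 and Cytl1 were at 0. Mesothelial markers summed to 10.3 to 17.1 and 10.5 to 18.8 CPM, with 1 of 7 tested genes higher, Upk1b (log2 2.13, adjusted p = 0.0475), a call lost without any one library (0.0850 to 0.376), with the block (0.0681), by upper-quartile scaling (0.0530), in DESeq2 (0.0834) and in limma-voom (0.0618), and Wt1 the most abundant. The neural, Schwann and neuroendocrine list summed to 10.7 to 17.4 and 12.1 to 16.6 CPM (Tubb3 highest), with 3 tested and none called by edgeR or DESeq2 (1 at an unadjusted p below 0.05), and markers at 0 included Sox10, Th, Snap25 and Chga.

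The remaining marker lists are given as sums for HACY and then CCL4. Called genes made up 11.1% of the tested cholangiocyte markers and 12.5% of the neutrophil ones, near the 11.7% of all genes. Megakaryocyte and platelet markers summed to 173 to 229 and 104 to 172 CPM (Pf4 highest), with none of 6 called by edgeR. These 6 went both ways: 3 were higher and 2 lower at an unadjusted edgeR p below 0.05, and DESeq2 called 3 higher and 1 lower. Cholangiocyte markers summed to 2944 to 4243 and 1177 to 2215 CPM, with 1 of 9 higher. Nearly all of each sum was Spp1, at 2838 and 4120 CPM in HACY and 1083 and 2108 in CCL4. The gene called was Cftr (log2 2.31, edgeR adjusted p = 0.0305, and log2 1.81 without HACY replicate 1), named after its values were seen. Stellate and fibroblast markers summed to 434 to 517 and 243 to 624 CPM (Col1a1 highest) and B cell markers to 24.1 to 29.3 and 26.1 to 26.3 (Pax5 highest), with none called by edgeR in either, 1 and 0 at an unadjusted p below 0.05, and 1 and 0 called by DESeq2. Neutrophil markers summed to 22.8 to 27.5 and 21.4 to 205 CPM, the high value in CCL4 replicate 2 (S100a9 at 112 CPM), with 1 of 8 lower. This was Cxcr2 (log2 -3.34, edgeR adjusted p = 0.0349), named after its values were seen. The Cxcr2 call was lost without the filter (0.052) and in limma-voom (0.107), and its log2 fold change was -1.83 without CCL4 replicate 2. T and NK cell markers summed to 2.79 to 3.06 and 0.657 to 0.887 CPM (Cd4 highest) and erythroid markers to 5.52 to 10.9 and 2.78 to 4.34 (Alas2 highest). Neither list had a call by edgeR or DESeq2, and each had 1 gene at an unadjusted p below 0.05. Cd24a, the gene of the sorted protein, had 21.9 and 19.4 CPM in HACY and 20.7 and 38.0 in CCL4.

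**Figure D5:**
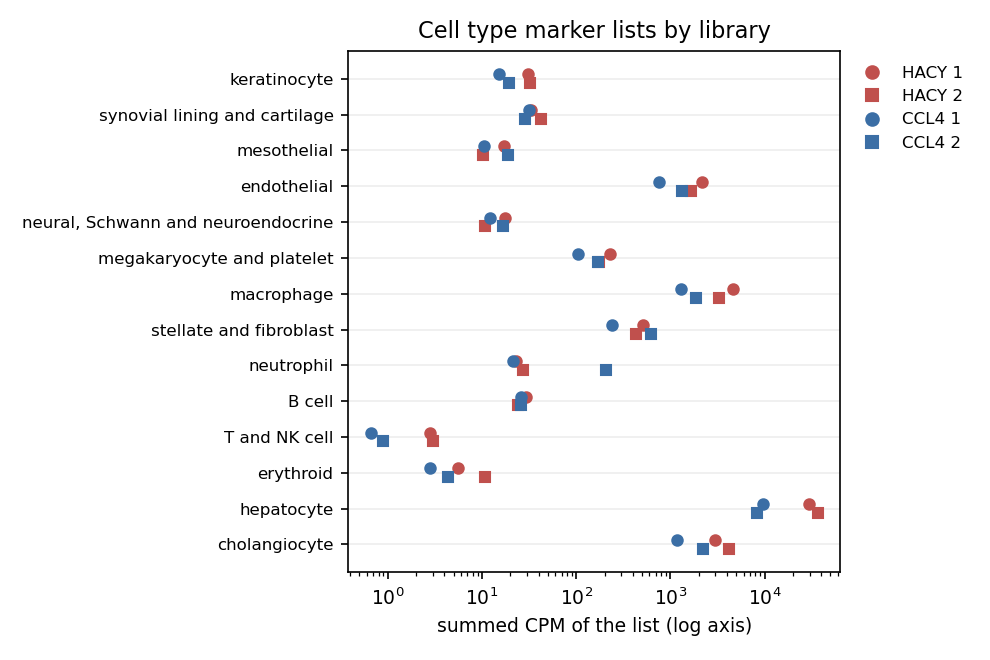
Summed CPM of each cell type marker list (log x axis), with 1 point per library. HACY points lie right of CCL4 points for the hepatocyte, macrophage, endothelial, cholangiocyte, megakaryocyte, keratinocyte, synovial, T and NK cell and erythroid lists, while the keratinocyte, synovial, mesothelial and neural lists stay between 10.3 and 41.9 CPM in all libraries.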

How the data were processed

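The 4 libraries (2 HACY, 2 CCL4, grouped and numbered by sample title) each came as a deposited table of gene symbols with count and FPKM columns. The counts are raw reads per gene, per the file headers, and sum to 18467299 to 19314219. The deposited FPKM column, so named in the file headers, is relative to gene length and library size. Libraries were paired-end stranded mRNA, per the labels' protocols. Trimmomatic, HISAT2, Cufflinks, HTSeq, DESeq and mm10 are named, without versions or roles, in the submitters' processing notes, while annotation and strand setting are not given in the sources used. Of 21878 rows, 20610 matched 1 gene of GENCODE M21 (GRCm38), and 27 bore names turned into dates.

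The count test was edgeR 4.0.16 (R 4.3.3) after filterByExpr (minimum count 10, minimum total 15), with TMM scaling and the robust quasi-likelihood test (two-sided). The 13428 p-values were adjusted by Benjamini-Hochberg and called below 0.05. Standard errors are the log2 fold change over the root of F, an approximation. The fit was tested on simulated data. Replicates were not copies (chi-square per degree of freedom 19.6 in HACY and 35.6 in CCL4). Intervals of counts of 0 (3 reads) cover counting error only.

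The 4 genes and all lists were chosen with earlier results of these data known. Named genes are the 4 members, up to 4 called genes of smallest p per list, every endothelin and neuropeptide Y ligand and receptor, called neighbours, the 5 nearest patterns (log2 CPM, prior count 2) and each marker list's most abundant gene. Others are said to be named after their values were seen. Some genes that meet the rule are not reported here. Other settings tried were scaling by RLE, upper quartile or library size, no filter, a stricter filter (1 CPM in every library), DESeq2 1.42.0, limma-voom (limma 3.58.1), limma on log2(FPKM + 1), a replicate block, the ratio of mean FPKM and each library left out.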

Additional observations from a re-analysis of the deposited data

How the results depend on the processing

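None of the log2 fold changes of Ivl, Prg4, Edn1 and Npy changed sign under any alternative. On log2(FPKM + 1) with limma they moved by more than the replicate SD for Ivl (3.71), Prg4 (2.54) and Edn1 (2.78), since the pseudocount of 1 shrinks values near 1 FPKM, and the ratio of mean FPKM gave 3.56 for Prg4. Without 1 library each, they ranged from 3.84 to 4.58 for Ivl, 3.55 to 4.07 for Prg4, 3.15 to 4.35 for Edn1 and 2.89 to 4.04 for Npy, which the stricter filter removed. Leaving out a library leaves a group with 1 sample, assumed to vary like the other group. Calls over all genes then numbered 629 to 3047. Called list genes ranged from 1 to 5 for the cornified envelope, 0 to 10 for keratinocyte factors, 1 to 7 for proteoglycans, 2 to 7 for hyaluronan genes, 1 to 3 for the endothelin system, 0 to 1 for the neuropeptide Y system, 4 to 7 for other peptides and 0 to 3 for neighbours.

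Counts of called genes that moved by over 1.5 times under other settings were as follows, and the cause was not tested. On log2(FPKM + 1), 1 envelope gene, 2 keratinocyte factors, 2 hyaluronan genes and 0 neighbours were called. The stricter filter left 1 envelope gene and 1 neighbour, no filter gave 2 proteoglycans, and upper-quartile scaling gave 1 neighbour. DESeq2 called 3 proteoglycans, 1 gene of the neuropeptide Y system and 1 neighbour, limma-voom 3 keratinocyte factors and 1 neighbour, and library size alone 1 gene of the neuropeptide Y system. With the replicate number as a block, 2 keratinocyte factors and 0 neighbours were called, 1224 genes in all, and the log2 fold changes of the 4 genes were 4.19, 3.82, 3.78 and 3.42 for Ivl, Prg4, Edn1 and Npy. The labels do not say that the numbers pair libraries, and same-numbered libraries' deviations correlated at r = -0.0989 over 13428 genes. Of 120 values under settings other than leaving out a library, 100 stayed within these limits and 20 moved. In CCL4, Npy had 17 and 39 reads and Edn1 49 and 37, few enough for counting error to add to their ratios.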
